A study of Rattus norvegicus with 8 samples.

Results

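The machinery that copies DNA was followed through 45 genes chosen by name, in 11 groups that run from the origin recognition complex and the MCM helicase to the DNA polymerases, the sliding clamp and the chromatin assembly factor CAF-1. All 45 symbols were found among the 24059 rows of the deposited count table, and all 45 were among the 16976 genes tested. The symbol Cdc45 stood on 2 rows, of which the one with the higher mean count was used; the other held 9 to 27 counts per library. Polyadenylated RNA had been sequenced from GFP-positive germ cells of the testes of prepubertal Sprague-Dawley rats carrying the GCS-EGFP transgene, a genotype shared by both groups. The sample labels read "cell line: SSC", while the design text describes cells isolated from rats, and the design text was followed here. The 4 doxorubicin rats (numbers 2, 3, 6 and 8) had received 5 mg/kg doxorubicin on postnatal day 6, the 4 control rats (numbers 1, 4, 5 and 9) had received vehicle, and cells were taken 24 h later. Each library came from 1 numbered animal. The sources used here do not give the route of injection, the promoter of the transgene or the share of cells in S phase. Doxorubicin, an anthracycline used in chemotherapy, intercalates into DNA and traps topoisomerase II on broken strands.

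Replication is prepared in G1, when the origin recognition complex, Cdc6 and Cdt1 load the ring-shaped MCM helicase onto origins, a step called licensing that geminin blocks once S phase has started. The kinase Cdc7 with its activator Dbf4 then lets Cdc45 and the GINS complex join the ring to form the active CMG helicase, and polymerase alpha-primase lays down primers that polymerases epsilon and delta extend on the clamp PCNA. In the testis of a newborn rat, gonocytes resume division, and with it DNA replication, and become spermatogonia. Many genes of this machinery are activated by E2F transcription factors as cells pass from G1 into S phase.

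E2F binding words are a feature that was not used to choose the genes. Promoter sequences are shown for 6 of the 13 members that met the rule for values per library, which is stated with the processing. These are the 3 that hold such a word, and Cdc45, Orc6 and Pcna as examples of the 8 that do not. Pole2, given by library only as the highest value, also holds such a word and is not shown. RefSeq promoters of the GRCr8 assembly, from 250 bases before to 50 after the start of each gene, were matched by symbol for 39 of the 45 members. Mcm4, Gins4, Orc1, Orc4, Cdc6 and Rpa3 had no matched promoter and were not searched. The E2F words searched, on both strands, were TTTGGCGC, TTTCCCGC, TTTCGCGC and TTTGCCGC. Related words were not searched, so a promoter without a match may still hold another E2F site. TTTGGCGG, which differs from the first word in its last base, stands in the promoters of Cdc45, Cdc7 and Pola2. It was not counted over all member promoters, so others may hold it too. At least 1 of the searched words stood in 18 of the 39 member promoters, or 46.2%. The share was 3.57% of the 14099 promoters of genes tested and 2.14% of all 33469 promoters of that length. The CCAAT box, a word bound by NF-Y in many cell cycle promoters, stood in 56.4% of member promoters and in 36.9% of those of genes tested. The word TTTGAA, the core of the CHR element of G2/M genes, stood in 12.8% and 13.2%. In the lines that follow, each written 5′ to 3′ on the strand of its gene, capitals mark the E2F words in the promoters of Mcm6 (chr13:42404303-42404602, minus strand), Gins1 (chr3:160184670-160184969, plus strand) and Pole (chr12:52053613-52053912, minus strand). In the promoters of Cdc45 (chr11:95689928-95690227, plus strand), Orc6 (chr19:37938807-37939106, minus strand) and Pcna (chr3:139955771-139956070, minus strand), which hold none of the E2F words, capitals mark CCAAT boxes on either strand, 4 in Cdc45 and 1 in each of the others.
Mcm6: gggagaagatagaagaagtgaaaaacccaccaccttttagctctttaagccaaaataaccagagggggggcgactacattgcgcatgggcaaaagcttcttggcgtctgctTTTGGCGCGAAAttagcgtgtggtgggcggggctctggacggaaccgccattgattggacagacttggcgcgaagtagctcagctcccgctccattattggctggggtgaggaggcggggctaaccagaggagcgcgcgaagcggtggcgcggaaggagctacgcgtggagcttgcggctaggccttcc
Gins1: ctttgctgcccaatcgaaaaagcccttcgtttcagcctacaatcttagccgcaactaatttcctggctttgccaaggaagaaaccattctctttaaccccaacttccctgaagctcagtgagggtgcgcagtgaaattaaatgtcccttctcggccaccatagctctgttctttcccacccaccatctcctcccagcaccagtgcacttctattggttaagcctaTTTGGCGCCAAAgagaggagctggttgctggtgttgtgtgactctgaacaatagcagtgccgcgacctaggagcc
Pole: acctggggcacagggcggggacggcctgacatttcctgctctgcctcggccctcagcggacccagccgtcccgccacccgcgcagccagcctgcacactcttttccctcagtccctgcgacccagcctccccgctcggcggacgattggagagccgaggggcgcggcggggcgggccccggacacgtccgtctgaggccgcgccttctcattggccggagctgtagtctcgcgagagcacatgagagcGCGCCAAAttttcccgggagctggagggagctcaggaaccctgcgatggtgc
Cdc45: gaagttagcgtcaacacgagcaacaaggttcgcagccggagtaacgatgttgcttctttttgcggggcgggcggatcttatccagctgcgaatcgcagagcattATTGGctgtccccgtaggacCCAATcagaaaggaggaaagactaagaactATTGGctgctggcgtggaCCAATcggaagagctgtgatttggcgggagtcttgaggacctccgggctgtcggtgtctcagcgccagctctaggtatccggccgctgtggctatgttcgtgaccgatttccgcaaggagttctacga
Orc6: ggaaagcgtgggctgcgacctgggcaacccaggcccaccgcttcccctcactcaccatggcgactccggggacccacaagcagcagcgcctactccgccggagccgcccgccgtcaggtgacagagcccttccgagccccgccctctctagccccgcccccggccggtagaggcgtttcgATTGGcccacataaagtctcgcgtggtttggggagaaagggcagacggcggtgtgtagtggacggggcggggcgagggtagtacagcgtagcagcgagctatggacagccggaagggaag
Pcna: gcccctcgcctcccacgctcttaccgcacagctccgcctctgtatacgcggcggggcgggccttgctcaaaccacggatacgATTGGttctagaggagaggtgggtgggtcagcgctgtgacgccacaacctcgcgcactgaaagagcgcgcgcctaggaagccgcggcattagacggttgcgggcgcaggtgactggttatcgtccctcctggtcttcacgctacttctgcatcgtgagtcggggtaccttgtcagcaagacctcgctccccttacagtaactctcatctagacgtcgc
In Mcm6 and Gins1 the capitals are 2 words that overlap on opposite strands, beginning 139 and 25 bases before the start of the gene, and in Pole the word spans the start itself. A match is a description of the letters, and no binding was measured.

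Total estimated counts per library ran from 41253848 to 58871101, and the members had between 805 and 29635 counts in a library, a counting error of 3.52% at the lowest and 0.581% at the highest. Levels are given as CPM (counts-per-million, scaled by TMM factors, which correct for a few abundant genes taking up reads). They rank libraries for 1 gene but not genes against each other, because transcript lengths were not at hand. The germ cell label was checked against 8 marker genes, which summed to 1711 to 1805 CPM in controls and 1759 to 1838 CPM after doxorubicin, with Dazl at 751.6 and Ddx4 at 377.1 CPM in controls. The pluripotency-linked gene Dppa3 stood at 0.558 CPM. Of the 8 germ cell markers, 3 had a negative and 5 a positive log2 fold change, and edgeR and DESeq2 called 0. Lin28a was lower in every treated library than in every control (log2 fold change -0.20; edgeR adjusted p = 0.517). Tex101 had a value of -0.094 with overlapping groups (edgeR adjusted p = 0.635). Marker lists of other cells summed to 65.8 to 71.9 CPM in controls for Sertoli cells, 69.8 to 83.4 for endothelial cells (mostly Pecam1, at 70.7), 42.8 to 50.8 for peritubular and stromal cells, 5.88 to 8.32 for Leydig cells, 6.33 to 8.20 for erythroid cells and 2.23 to 2.67 for macrophages and leukocytes. The doxorubicin libraries gave 63.4 to 74.2, 80.1 to 90.9, 39.4 to 51.7, 4.38 to 9.71, 8.18 to 13.7 and 2.57 to 3.29 CPM for the same lists, and the sums of every list overlapped between the groups, the erythroid sums only just. Within the erythroid list Slc4a1 was higher (log2 fold change 1.28; edgeR adjusted p = 0.0339), while Hbb and Hba-a1 were lower in every treated library (-1.17 and -0.88; edgeR adjusted p = 0.192 and 0.206; DESeq2 adjusted p = 0.0243 and 0.0382). In the other lists of non-germ cells neither tool called a gene. No marker was at 0 in all libraries; Cyp17a1, Hsd3b1 and the macrophage gene Adgre1 were at 0 in some.

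The series set treated against vehicle-injected rats to see what germ cells transcribe a day after the drug. For the replication machinery the measured differences were small and mostly in 1 direction. Of the 45 members, 39 had a negative log2 fold change, as had 52.2% of all genes tested, and the median was -0.055, a difference of -3.76%, against -0.0047 over all genes. Of all genes tested, 27.99% had a value below that member median. Shares over all genes, here and below, were not matched for expression level. Genes read from the same libraries also do not vary independently, so counts of members are descriptive. The values ran from -0.19 for Cdc45, the CMG subunit, to 0.092 for Pole2, a subunit of polymerase epsilon named here as the end of the range. No member passed the threshold of adjusted p below 0.05 in edgeR's quasi-likelihood test, which called 0.112% of all genes. DESeq2 and limma-voom, which called 0.959% and 0.141% of the genes they tested, also called 0 members. The smallest adjusted p was that of Cdc45 in each of the 3 tools (0.291, 0.0819 and 0.304). At an unadjusted p below 0.05, edgeR had 6 members lower and 0 higher. Over all genes tested, 2.56% were lower and 4.19% higher at that level. In 4 members, Cdc45, Gins1, Orc6 and Rfc1, every doxorubicin library lay below every control library, which was so for 1.95% of all genes, and in 0 members the groups separated the other way (2.77% of all genes).

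The intervals bound how large a difference these 8 libraries leave room for. The 95% interval of the log2 fold change lay within a 1.25-fold change in either direction (0.32 on the log2 scale) for each of the 45 members. The lowest bound was -0.30, for Cdc45, and the highest was 0.20, for Pole2. Each interval covers its own gene and not the 45 together. In the same fit, Tyms, the thymidylate synthase that supplies a DNA precursor and is likewise active in S phase, had an interval from 0.34 to 0.70 (adjusted p = 0.0589 in edgeR, 2.3e-07 in DESeq2 and 0.0298 in limma-voom), above the interval of every member. Prc1, also read for reference, had an interval from 0.165 to 0.349 (adjusted p = 0.0446 in edgeR, 8.4e-05 in DESeq2 and 0.0541 in limma-voom). It overlapped the intervals of Pole2 and Orc4. The interval of Cdkn1a ran from 1.13 to 2.59 (adjusted p = 0.107 in edgeR, 6.4e-06 in DESeq2 and 0.0607 in limma-voom). In a bulk sample, fewer cells in S phase and less RNA per replicating cell cannot be told apart.

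**Figure D1:**
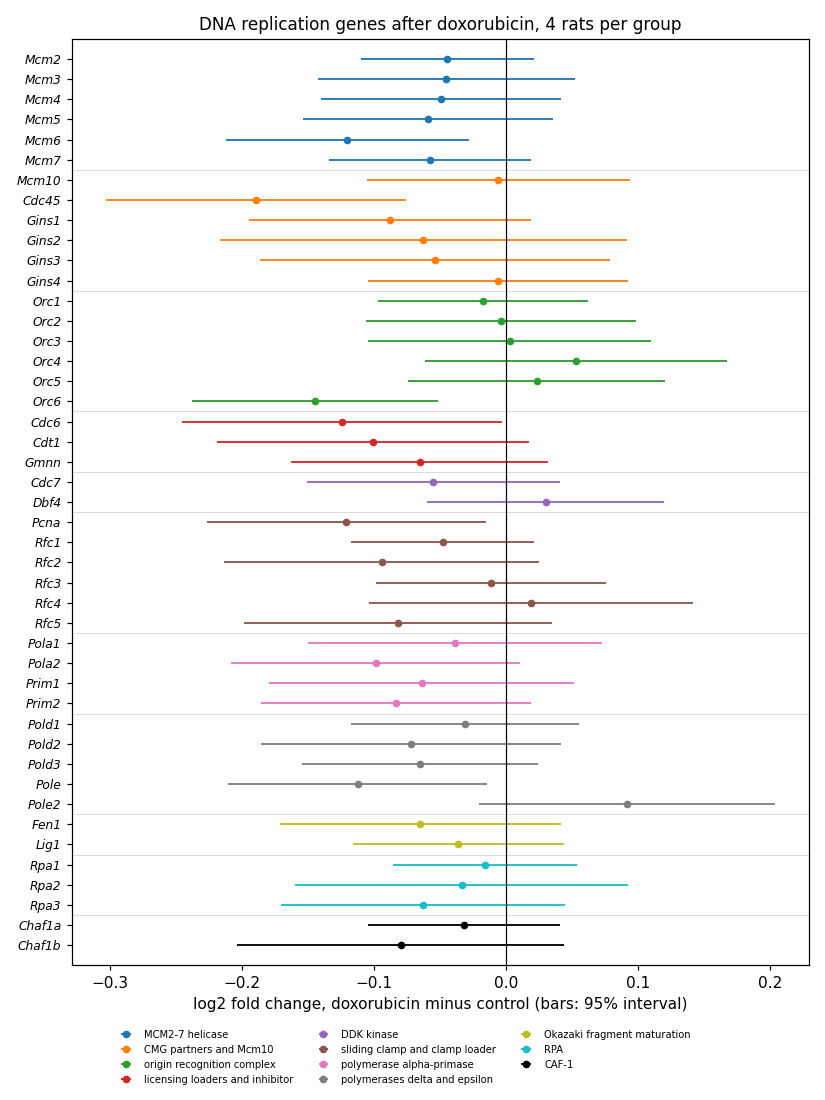
Log2 fold change of each of the 45 replication genes, doxorubicin minus control, on the horizontal axis, with genes listed by subcomplex and coloured by it; points are edgeR estimates and bars 95% intervals. The points sit left of 0 for 39 genes, and the bars stay between -0.30 and 0.20.

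**Figure D2:**
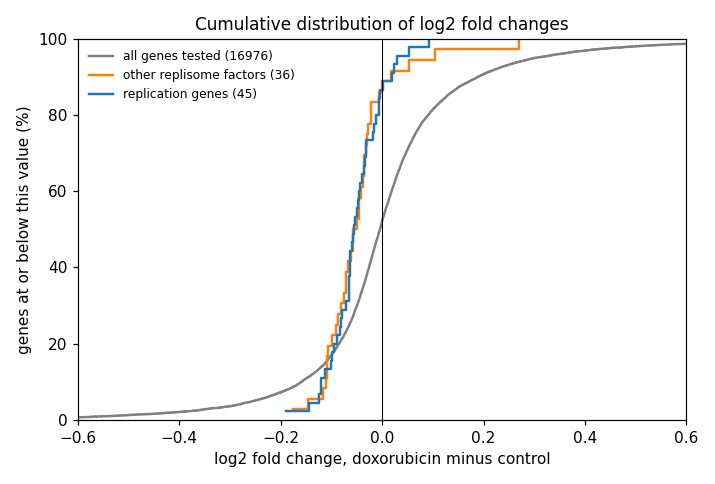
Cumulative share of genes (vertical axis, percent) at or below each log2 fold change (horizontal axis) for the 45 members, 36 other replisome factors and all 16976 genes tested; genes beyond the plotted range are counted but not drawn. The curves of the members and of the other factors cross 50% left of the curve of all genes, at -0.055 and -0.054 against -0.0047, and span a narrower range.

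Control rat 1 carried part of the difference in the 45 members. It had the highest CPM of all 8 libraries in 29 of the 45 members, and its median member stood 0.076 above the mean of the 4 controls on the log2 scale. The medians were 0.0025 in control rat 4, -0.016 in control rat 5 and -0.049 in control rat 9. In the treated rats they were -0.039 in rat 2, -0.047 in rat 3, -0.056 in rat 6 and -0.058 in rat 8, so control rat 9 lay among the treated rats. Without control rat 1 the median log2 fold change was -0.031, 33 of 45 were negative, and edgeR had 3 members lower at an unadjusted p under 0.05. The shares of all genes that were negative, or lower at that level, were not computed for this fit. Among the controls the library totals ran in the same order as these medians, with 57700969, 55768821, 52646022 and 41253848 counts in rats 1, 4, 5 and 9. The treated libraries did not follow that order: doxorubicin rat 2 was the deepest of all 8 (58871101 counts) with a median of -0.039, and doxorubicin rat 8 (55783197 counts), close in depth to control rat 4, stood at -0.058 against 0.0025. Doxorubicin rat 6 (41665785 counts), close in depth to control rat 9, stood at -0.056 against -0.049. The part of depth in the result was not tested. The spread over the controls was wider than over the treated rats in 37 of 45 members, with a median coefficient of variation of 5.17% in controls and 3.25% after doxorubicin. Over all genes tested the median in controls was 8.28%, and the share of all genes with a wider spread in controls was not computed.

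Doxorubicin rat 2 had the highest level of Cdkn1a, the p53-induced inhibitor of cyclin-dependent kinases, at 36.0 CPM against 14.96 to 16.9 CPM in the other treated rats and 5.37 to 6.14 CPM in controls. Its replication genes did not stand to 1 side of the treated group: it was the lowest of the 4 treated libraries in 13 members and the highest in 14. The lowest included Cdc45 and Cdc6, and the highest included Rfc4.

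**Figure D3:**
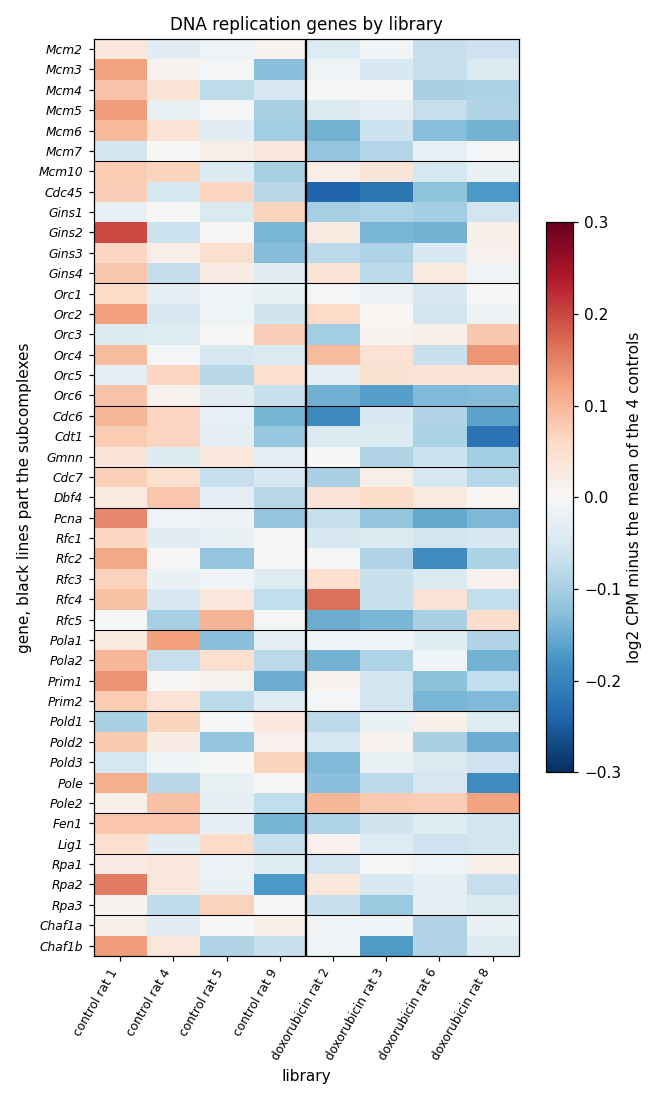
Log2 CPM of each member (rows, by subcomplex) in each library (columns), minus the mean of the 4 controls, on a colour scale from blue (lower) to red (higher). The column of control rat 1 is the reddest, the column of control rat 9 is mostly blue, and the treated columns are mostly pale blue, with Cdc45, Orc6 and Cdc6 blue in all 4 treated rats and Pole2 red in all 4.

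The MCM helicase is the ring of 6 related ATPases, Mcm2 to Mcm7, that unwinds DNA ahead of the fork. All 6 had negative log2 fold changes, from -0.12 to -0.045, with a median of -0.054. Their mean control levels ran from 276 CPM for Mcm7 to 492 CPM for Mcm4. Mcm6 (ENSRNOG00000003703.7) stood at 458, 439.9, 418 and 398 CPM in control rats 1, 4, 5 and 9 and at 388, 409, 392 and 388 CPM in doxorubicin rats 2, 3, 6 and 8. Control rat 9 lay below doxorubicin rat 3, so the groups overlapped. The log2 fold change was -0.12 ± 0.04 (SE; edgeR adjusted p = 0.512), the most negative of the ring. The other 5 subunits lay close together, between -0.059 and -0.045, with adjusted p from 0.842 to 0.941 in edgeR.

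Cdc45 and the 4 GINS subunits complete the CMG helicase around the MCM ring, and Mcm10 helps to set it in motion. All 6 of these genes were negative, with a median of -0.059. Cdc45 (ENSRNOG00000070046.1) stood at 42.7, 39.1, 42.4 and 38.3 CPM in control rats 1, 4, 5 and 9 and at 34.4, 34.8, 37.3 and 36.0 CPM in doxorubicin rats 2, 3, 6 and 8. Every treated rat lay below every control. The means were 40.6 ± 2.24 and 35.6 ± 1.31 CPM (SD, n = 4 each). The fitted log2 fold change was -0.19 ± 0.05 (SE; edgeR adjusted p = 0.291). This was the most negative value among the members. Gins1 (ENSRNOG00000008091.6), a GINS subunit, stood at 27.7, 28.3, 27.4 and 29.6 CPM in controls and at 26.3, 26.5, 26.3 and 27.1 CPM after doxorubicin. The groups did not overlap, although the nearest libraries, at 27.4 and 27.1 CPM, lay close together, and the log2 fold change was -0.088 ± 0.049 (SE; edgeR adjusted p = 0.803). Gins2, Gins3, Gins4 and Mcm10 had log2 fold changes of -0.063, -0.054, -0.006 and -0.0058, all with overlapping groups. Gins2 varied most among the controls of all members, with a coefficient of variation of 10.3%.

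The origin recognition complex marks the sites where replication can start. Its signs were even, 3 members negative and 3 positive, with a median of -0.0006. Orc1 to Orc5 lay between -0.018 and 0.053. Orc6 (ENSRNOG00000024043.6), the smallest subunit, had a more negative value than these 5. It stood at 62.1, 58.99, 57.3 and 55.9 CPM in control rats 1, 4, 5 and 9 and at 53.0, 52.2, 53.4 and 53.5 CPM in doxorubicin rats 2, 3, 6 and 8. Every treated library lay below every control, and the treated values lay close together. The log2 fold change was -0.14 ± 0.04 (SE; edgeR adjusted p = 0.354; DESeq2 adjusted p = 0.158). Whether Orc6 differed from the other subunits was not tested.

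Cdc6 and Cdt1 load the helicase, and geminin, encoded by Gmnn, holds Cdt1 in check. All 3 were negative, at -0.12, -0.10 and -0.066. Cdc6 (ENSRNOG00000027787.6) stood at 65.7, 64.2, 60.4 and 55.7 CPM in controls 1, 4, 5 and 9 and at 53.7, 59.5, 57.6 and 55.0 CPM in doxorubicin rats 2, 3, 6 and 8. Control rat 9 lay among the treated libraries (edgeR adjusted p = 0.716). The log2 ratio of Cdt1 to Gmnn within a library, which needs no gene length to compare groups, was 0.67 ± 0.09 (SD, n = 4) in controls and 0.64 ± 0.07 (SD, n = 4) in treated rats (two-sided exact permutation p = 0.543, also 0.543 after Benjamini-Hochberg adjustment over 2 ratios). The smallest p that 4 against 4 libraries allow is 0.0286.

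Cdc7 and Dbf4 form the kinase that fires licensed origins. Cdc7 (ENSRNOG00000002105.7) had the larger absolute log2 fold change of the pair, -0.055 ± 0.044 (SE; edgeR adjusted p = 0.910). It stood at 93.5, 91.95, 84.7 and 85.99 CPM in control rats 1, 4, 5 and 9 and at 83.2, 89.99, 85.9 and 83.8 CPM in doxorubicin rats 2, 3, 6 and 8. Dbf4 had a log2 fold change of 0.030. The log2 ratio of Dbf4 to Cdc7 was -0.055, 0.024, 0.028 and -0.046 in control rats 1, 4, 5 and 9 and 0.12, 0.027, 0.066 and 0.080 in doxorubicin rats 2, 3, 6 and 8. Doxorubicin rat 3 lay among the controls. The mean was higher by 0.086 after doxorubicin (two-sided exact permutation p = 0.0571, 0.114 after adjustment over 2 ratios).

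PCNA is the ring that tethers polymerases to DNA, and replication factor C is the 5-subunit loader that opens it. Pcna (ENSRNOG00000021264.7) stood at 223, 200.1, 199 and 186 CPM in control rats 1, 4, 5 and 9 and at 192, 186, 181 and 183 CPM in doxorubicin rats 2, 3, 6 and 8. Control rat 1 lay above the rest and control rat 9 among the treated rats. The means of 202 ± 15.4 and 186 ± 4.67 CPM (SD, n = 4 each) gave a log2 fold change of -0.12 ± 0.05 (SE; edgeR adjusted p = 0.644), and without control rat 1 the value was -0.071. Rfc1 (ENSRNOG00000002855.8), the large subunit of the loader, stood at 239, 224, 225 and 228 CPM in controls and at 221, 223, 220.3 and 222 CPM after doxorubicin. The groups did not overlap, but the log2 fold change was -0.048 ± 0.032 (SE; edgeR adjusted p = 0.856). It rested on treated libraries that lay very close together, with a coefficient of variation of 0.432%, the smallest among the members. Rfc2, Rfc3 and Rfc5 were negative (-0.094, -0.011 and -0.082), Rfc4 was positive (0.019), and all 4 overlapped between the groups.

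**Figure D4:**
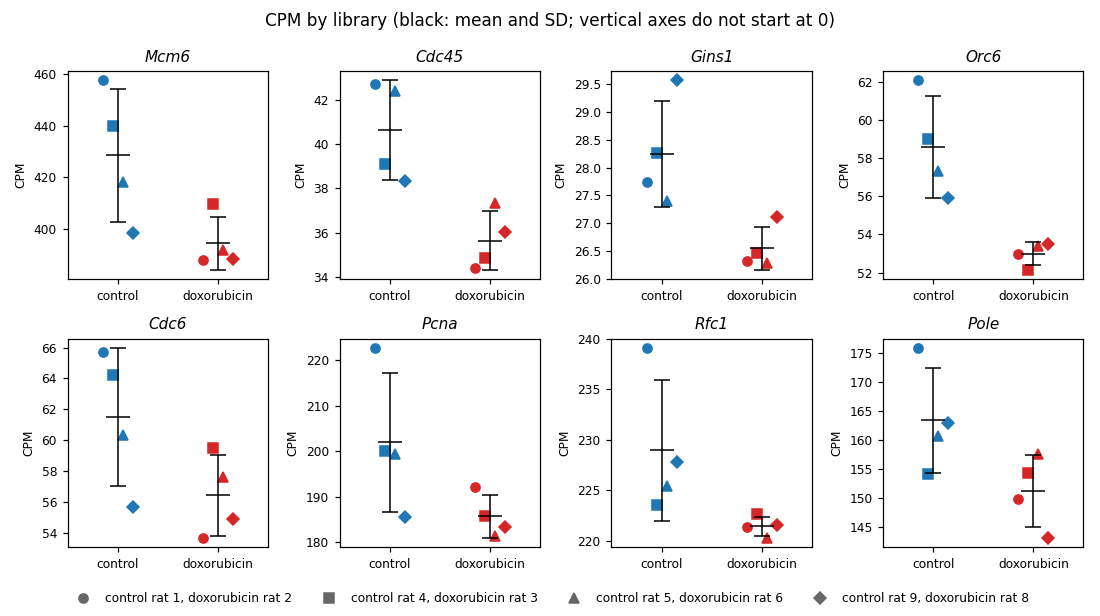
CPM of 8 members (vertical axes, which do not start at 0) in each of the 4 control and 4 doxorubicin libraries, for members with an unadjusted p below 0.05 or groups that do not overlap; each library keeps 1 marker shape, shapes shared by a control and a treated rat do not pair them, and black marks give the mean and SD. Treated points lie below all controls for Cdc45, Gins1, Orc6 and Rfc1, and overlap them for Mcm6, Cdc6, Pcna and Pole.

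Polymerase alpha and primase begin every new strand with a short RNA-DNA primer. All 4 genes of the complex were negative, from -0.099 to -0.039. Pola2 (ENSRNOG00000020906.6), the regulatory subunit, had the most negative value (-0.099 ± 0.051, SE; edgeR adjusted p = 0.790). It stood at 75.9, 67.5, 73.2 and 67.0 CPM in control rats 1, 4, 5 and 9 and at 64.1, 66.4, 70.1 and 64.2 CPM in doxorubicin rats 2, 3, 6 and 8. Only doxorubicin rat 6 lay above the lowest control.

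Polymerase epsilon copies the leading strand and polymerase delta the lagging strand. Pole (ENSRNOG00000037449.5), the catalytic subunit, stood at 176, 154, 161 and 163 CPM in control rats 1, 4, 5 and 9 and at 149.7, 154, 158 and 143 CPM in doxorubicin rats 2, 3, 6 and 8. The log2 fold change was -0.11 ± 0.05 (SE; edgeR adjusted p = 0.644), with overlapping groups. Pole2 stood at 27.5, 28.9, 26.7 and 25.9 CPM in controls and at 29.2, 28.7, 28.7 and 29.6 CPM after doxorubicin. Its log2 fold change of 0.092 ± 0.052 (SE; edgeR adjusted p = 0.807) was the highest among the members, and control rat 4 lay above 2 of the treated rats. The accessory subunits Pole3 and Pole4, outside the 45 members, had values of -0.042 and -0.006, so of the 4 subunits only Pole2 was positive, and differences among them were not tested. The 3 polymerase delta genes, Pold1, Pold2 and Pold3, had values of -0.031, -0.072 and -0.065.

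Fen1 trims the flaps of Okazaki fragments and Lig1 seals the nicks. Fen1 (ENSRNOG00000020531.4) stood at 103.7, 103.8, 96.0 and 88.9 CPM in controls and at 91.8, 94.0, 95.5 and 94.1 CPM after doxorubicin, all treated values between the lowest control and the other 3. Its log2 fold change was -0.065 ± 0.049 (SE; edgeR adjusted p = 0.900), and that of Lig1 was -0.036. RPA coats the single strands exposed at forks and at resected breaks. Its subunits Rpa1, Rpa2 and Rpa3 had log2 fold changes of -0.016, -0.034 and -0.063. Rpa3 (ENSRNOG00000008309.6) stood at 33.3, 31.4, 34.7 and 33.0 CPM in controls and at 31.6, 30.6, 32.5 and 32.1 CPM after doxorubicin (edgeR adjusted p = 0.907). CAF-1 deposits histones behind the fork. Chaf1a and Chaf1b had values of -0.032 and -0.080, and Chaf1b (ENSRNOG00000001692.7) stood at 49.2, 46.2, 42.4 and 43.1 CPM in controls and at 44.8, 40.1, 42.4 and 43.8 CPM after doxorubicin (edgeR adjusted p = 0.885). All 7 of these genes overlapped between the groups.

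The values of members with and without one of the searched E2F words in the promoter overlapped. The 18 with a match had log2 fold changes from -0.12 to 0.092 with a median of -0.050, and 15 were negative. The 21 without a match ran from -0.19 to 0.030 with a median of -0.064, and 19 were negative. No test was made between the 2 sets. The set without a match includes Cdc45, Cdc7 and Pola2, whose promoters hold the related word TTTGGCGG. Others in either set may hold it too, since it was not counted over all member promoters. Mcm2, Mcm3, Mcm5, Mcm6 and Mcm7 each had at least 1 match, and Mcm4 had no matched promoter to search. In Mcm2 and Mcm6 the 2 matches were 1 stretch read on both strands, and in Mcm5 2 of the 3 were.

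The same fit was read for 36 replisome factors outside the 45 members. All 36 were tested, and 32 had a negative log2 fold change, as had 52.2% of all genes tested. The median was -0.054. Without control rat 1 it was -0.052, where that of the members was -0.031. At adjusted p below 0.05, edgeR and DESeq2 called 0 of them, and 0.112% and 0.959% of the genes each tool tested. At an unadjusted p below 0.05, edgeR had 5 lower and 0 higher, against 2.56% and 4.19% of all genes tested. Wdhd1, which links polymerase alpha to the helicase, had the most negative value (-0.18 ± 0.05, SE; edgeR adjusted p = 0.308), with 203, 189, 185 and 179 CPM in control rats 1, 4, 5 and 9 and 161, 182, 166 and 159.5 CPM in doxorubicin rats 2, 3, 6 and 8. Doxorubicin rat 3 lay above control rat 9. The nuclease-helicase Dna2 (-0.15; edgeR adjusted p = 0.349) and the checkpoint mediator Clspn (-0.11; edgeR adjusted p = 0.492) were lower in every treated library than in every control. The groups separated in that direction for 1.95% of all genes tested. Dna2 measured 91.7 to 97.6 CPM in controls and 79.6 to 90.2 CPM after doxorubicin, and Clspn 129 to 133 and 115 to 125 CPM. Donson and Chtf18 had log2 fold changes of -0.11 and -0.090 with overlapping groups. The highest value in the list was that of Pold4 (0.27 ± 0.25, SE), a small polymerase delta subunit that stood at only 0.50 CPM in controls.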

How the data were processed

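Libraries came from 4 control and 4 doxorubicin rats, grouped by sample title. The authors deposited estimated counts per gene, not normalized; 32.5% to 33.6% of the values in a library were not whole (tolerance 1e-06), and all were rounded. The submitters' processing notes name kallisto 0.48.0, featureCounts, DESeq2 1.40.2 and build rn6, without their roles; the sources used here do not give the strand setting or the handling of multi-mapping reads, so genes with near-identical copies or overlaps are uncertain. Genes passing filterByExpr were TMM-scaled and tested with edgeR 4.0.16 (quasi-likelihood, robust, no covariate; R 4.3.3), with Benjamini-Hochberg adjustment over 16976 genes. Alternatives were DESeq2 1.42.0, limma-voom (limma 3.58.1), other scaling and filters, and leaving out each library. The procedure was run on simulated counts with changes of 1.25-fold or more. The estimate of every member was smaller than that, so the simulation cannot tell whether changes of their size would be called. Every library pair differed beyond sampling noise (chi-square per degree of freedom at least 6.22). CPM errors are SD; fold-change errors are SE.

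The members and lists were chosen with earlier results of these data known. Values per library are given for members with an unadjusted p below 0.05, with groups that do not overlap, called by DESeq2, or with the largest absolute change of their group. Of the other factors, those at an unadjusted p below 0.05 are named; Pole2 and Pold4 were named after their values were seen. Levels per length were planned but not computed, since no transcript lengths were at hand.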

Additional observations from a re-analysis of the deposited data

Results flagged for a closer look

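Among 96 groups of 4 libraries examined (45 genes, 2 ratios and the median member, in each group), 2 had a single library standing well away from the other 3. By chance about 1 in 20 groups, here 4.8, would be marked. Orc5 stood at 52.5 CPM in doxorubicin rat 2, below the 54.9 to 55.2 CPM of the other treated rats. Chaf1a stood at 133 CPM in doxorubicin rat 6, below the 139.9 to 141 CPM of the others.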

How the results depend on the processing

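No member and none of the 36 other factors was called under any of 15 alternatives to the edgeR fit, 8 of which left out 1 library; the smallest adjusted p of a member was 0.0819, for Cdc45 with DESeq2. The median log2 fold change of the members stayed between -0.063 and -0.051 with other tools, scaling or filters and between -0.062 and -0.031 when 1 library was left out. The number of negative members ran from 38 to 40 and from 33 to 40. Members at an unadjusted p below 0.05 numbered 3 to 9 lower and 0 to 1 higher when 1 library was left out, with the 3 found without control rat 1 and the 9 without control rat 9. The shares of all genes at that level were not computed for those fits. For the 13 members that met the rule for values per library, all 195 alternative values kept their direction and stayed uncalled. Pole2, named after its values were seen, is not among these 13, and the direction of its value was not followed over the alternatives. Over all genes the 19 edgeR calls became 170 with DESeq2, 53 without robust fitting, and 1 to 62 when 1 library was left out. The Cdt1 to Gmnn log2 difference ran from -0.062 to 0.0006 when 1 library was left out, and changed sign to 0.0006 without control rat 4; the cause was not tested. The Dbf4 to Cdc7 difference ran from 0.070 to 0.10. No paired analysis was possible because the control and doxorubicin rats share no number.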
